A study of Homo sapiens with 8 samples.

Results

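The Fc receptors and ITAM adaptors described here are 9 genes: the adaptors FCER1G, TYROBP and HCST, the kinase SYK, and the receptors FCGR1A, FCGR2A, FCAR, FCGRT and FCER1A. They were picked out by gene symbol in the platform annotation, from 20046 annotated genes, and 12 of the 47230 probes carried such a symbol. The list was drawn up with earlier results of these data known. The cells were Kasumi-1, an established human acute myeloid leukaemia line in which a chromosome translocation joins the transcription factor gene RUNX1 to RUNX1T1, which encodes the corepressor ETO. Every few days the cells received, by electroporation, 200 nM of siRE, which targets the RUNX1/ETO fusion, or of the mismatch control siMM. Illumina bead arrays measured total RNA at 48 and 96 h, both after 1 electroporation, at 168 h after 2 and at 240 h after 3, with 1 array per siRNA and time and 8 arrays in all. All groups therefore carried the translocation, had been electroporated, and come from the same line.

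Fc receptors bind the constant part of antibodies. Many of them, and many other myeloid receptors, have no signalling tail of their own and pair in the membrane with small adaptor chains. FCER1G and TYROBP carry an immunoreceptor tyrosine-based activation motif (ITAM), which Src family kinases phosphorylate and to which the kinase SYK then binds. HCST carries a different tyrosine motif that recruits phosphoinositide 3-kinase. The adaptors are abundant in granulocytes, monocytes and natural killer cells, and in myeloid cells they serve phagocytosis and the release of granules and cytokines.

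RefSeq's promoter table for build GRCh38.p14 held a window, from 250 bases before to 50 after a gene's start, for 8 of the 9 genes, in 10 entries because SYK had 3 starts. The windows were searched on both strands for the RUNX core TGTGGT, since a RUNX1 fusion was depleted. It was found in 4 of the 8 genes, FCER1G, TYROBP, HCST and FCGRT, and in 13.1% of all 35116 promoter windows of the table. These 4 windows are shown because they hold the core, whose letters (TGTGGT or its reverse complement ACCACA) are in capitals:
FCER1G promoter (RefSeq, GRCh38.p14, chr1:161215045-161215344, plus strand): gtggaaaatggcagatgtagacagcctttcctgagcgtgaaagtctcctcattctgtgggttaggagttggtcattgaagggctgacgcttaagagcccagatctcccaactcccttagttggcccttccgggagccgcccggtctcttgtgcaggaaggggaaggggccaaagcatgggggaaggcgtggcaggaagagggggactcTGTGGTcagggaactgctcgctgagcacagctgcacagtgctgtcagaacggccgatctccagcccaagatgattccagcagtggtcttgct
TYROBP promoter (RefSeq, GRCh38.p14, chr19:35908246-35908545, minus strand): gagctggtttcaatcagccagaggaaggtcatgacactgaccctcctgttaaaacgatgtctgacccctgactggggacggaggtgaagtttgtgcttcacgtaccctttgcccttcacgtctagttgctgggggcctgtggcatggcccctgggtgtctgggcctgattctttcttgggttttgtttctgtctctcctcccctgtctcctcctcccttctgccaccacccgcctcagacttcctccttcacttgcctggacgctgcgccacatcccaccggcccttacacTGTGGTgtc
HCST promoter (RefSeq, GRCh38.p14, chr19:35902279-35902578, plus strand): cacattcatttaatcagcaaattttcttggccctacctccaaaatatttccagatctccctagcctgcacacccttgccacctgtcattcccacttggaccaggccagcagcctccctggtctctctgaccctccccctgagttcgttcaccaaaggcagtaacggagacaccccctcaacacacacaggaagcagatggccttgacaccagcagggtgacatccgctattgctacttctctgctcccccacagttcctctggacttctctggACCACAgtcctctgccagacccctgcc
FCGRT promoter (RefSeq, GRCh38.p14, chr19:49512411-49512710, plus strand): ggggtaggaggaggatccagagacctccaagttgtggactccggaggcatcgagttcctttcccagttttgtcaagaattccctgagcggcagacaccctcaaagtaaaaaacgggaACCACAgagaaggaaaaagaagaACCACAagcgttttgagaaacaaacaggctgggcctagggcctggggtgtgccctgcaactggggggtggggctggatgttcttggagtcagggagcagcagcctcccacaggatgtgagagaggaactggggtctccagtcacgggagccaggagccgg
Counted from 0 at the start site, the core began at -42 in FCER1G, at 41 in TYROBP and at 23 in HCST, so that in the last pair it lay after the start. FCGRT held 2 cores, at -133 and -110. The PU.1 core AGGAAG was in 6 of the 8 genes, all but FCGRT and FCER1A, and in 33.6% of all windows. The C/EBP motif TTGCNNAA was in SYK alone (10.5% of all windows), where it lay beside a PU.1 core without overlapping it, and the AP-1 motif TGANTCA in none of them (7.71%). A match is a description of letters and says nothing of binding.

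**Figure D1:**
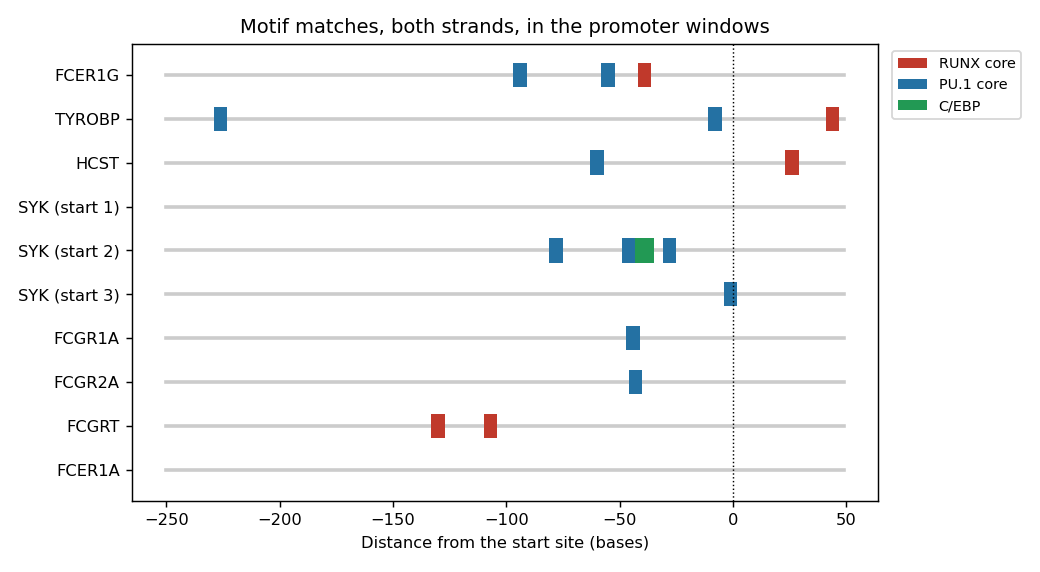
Motif matches in the 10 promoter windows of 8 genes, with distance from the start site in bases on the x axis and a row for each start. The RUNX core lies in 4 genes, before the start in FCER1G and FCGRT and after it in TYROBP and HCST.

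A value is the authors' normalized value, treated here as log2, and a fold holds only if that scale is plain log2. A background cut-off of 5.90 was set from the distribution of all values, and 14644 probes above it on at least 2 of the 8 arrays were tested. Of the 12 probes 9 passed this filter, for 7 of the 9 genes; FCAR and FCER1A did not pass on any array. A mean ± SD is taken over the 4 times of an siRNA, so it spreads over times and not over replicates of a time. The labels do not say whether the arrays came from separate cultures, so p-values measure only the spread between these arrays, whose number limits the precision. The comparison over the 4 times used limma with siRNA and time as factors and a threshold of 0.05 after Benjamini-Hochberg adjustment over all probes tested. A second limma test asked whether the siRE minus siMM difference changed with day.

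The targeted transcript was checked first: RUNX1T1 lay between 8.65 and 9.23 on the siMM arrays and between 7.18 and 7.81 on the siRE arrays at its brightest probe (difference -1.38, SE 0.13, limma adjusted p = 0.000197). A dimmer RUNX1T1 probe, at 5.51 in siMM, stood at 0.28 (0.261). Of the 7 Kasumi-1 markers in the annotation, all were above background, with MPO at 14.15 in siMM. CD34, a marker of stem and progenitor cells, fell by 1.87 at its brightest probe (SE 0.35, limma adjusted p = 0.00958). That call was lost on leaving out the 2 arrays of 96 h or of 168 h (limma adjusted p = 0.0523 and 0.0905), with values below the cut-off set to it (0.0704) and with a robust prior that follows intensity (0.194). No array of this probe was below the cut-off, so setting low values to it left the probe's own values unchanged. CD34's other tested probes stood at -1.90, -0.63, -0.60 and -0.44 (limma adjusted p = 0.00764, 0.129, 0.0475 and 0.0787). Of markers of other cells, those above background were 3 of 8 for T cells, 2 of 6 for B cells, 0 of 7 for natural killer cells, 2 of 8 for mast cells and basophils, 2 of 7 for monocytes and macrophages, 2 of 6 for erythroid cells and 2 of 7 for megakaryocytes. Only the genes above background in these 7 lists were tested. Of them 1 passed over the 4 times, while 7.1% of all genes tested passed in either direction. With so few genes, 1 call does not set these lists apart from all genes. The gene was CSF1R, the macrophage growth factor receptor, which rose by 0.98 (SE 0.16, limma adjusted p = 0.00475). When both arrays of 168 h were left out, CSF1R missed the threshold (limma adjusted p = 0.0528). The summed linear signal of the 2 monocyte markers above background, CSF1R and CD68, ranged from 412 to 676 in siMM and from 482 to 1048 in siRE, while CD14, CD163, MSR1, VCAN and FCN1 were not above background. Their part in the results below was not tested.

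The first comparison asked which of the 9 genes siRE moved away from siMM across all times. Of the 7 tested, 3 were higher, TYROBP, HCST and SYK, 0 were lower (1, FCGR1A, at an unadjusted limma p under 0.05) and 4 did not pass. Of all 8830 genes tested, 3.76% were higher and 3.34% lower. At an unadjusted limma p under 0.05 there were 3328 of the 14644 probes tested, in either direction. All the adaptors and SYK differed by 2-fold or more at 240 h, and none of the receptors did. The median difference was 1.29 over the 7 genes and -0.04 over all genes tested. As the genes were chosen with earlier results of these data known, these shares and medians describe the set and do not test it. In these bulk samples, more cells with a transcript and more RNA per cell cannot be told apart.

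HCST, known as DAP10, is the partner of the activating receptor NKG2D. Its brightest probe read 10.34, 10.85, 11.24 and 10.53 in siMM at 48, 96, 168 and 240 h, and 11.70, 12.98, 13.47 and 13.79 in siRE. The lowest siRE array lay above the highest siMM array, and siRE was higher at each time than at the time before. The mean rose from 10.74 ± 0.40 to 12.98 ± 0.92 (SD, n = 4 arrays each), by 2.24 (SE 0.24, limma adjusted p = 0.000411), a 4.74-fold rise. A dimmer second probe read 6.55, 6.75, 7.23 and 7.02 in siMM and 7.59, 8.83, 9.81 and 10.28 in siRE. It gave the same difference of 2.24 (SE 0.27, limma adjusted p = 0.000834).

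TYROBP, known as DAP12, is the ITAM adaptor of TREM and other myeloid receptors. It read 6.20, 6.25, 6.69 and 6.17 in siMM and 7.35, 7.83, 9.07 and 10.13 in siRE. The siMM arrays stayed near background, and all siRE arrays lay above them. The mean rose from 6.33 ± 0.24 to 8.60 ± 1.25, by 2.27 (SE 0.35, limma adjusted p = 0.00314), or 4.82-fold. When the prior was made robust and allowed to follow intensity, the call ended (limma adjusted p = 0.133). In RefSeq TYROBP and HCST are direct neighbours on chromosome 19, with 0 genes between them, and lie on opposite strands.

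SYK, the kinase that binds phosphorylated ITAMs, read 7.37, 7.35, 6.98 and 7.18 in siMM and 8.06, 8.76, 8.52 and 8.69 in siRE. The arms did not overlap, and the siRE arrays from 96 h on lay close together. SYK rose from 7.22 ± 0.18 to 8.51 ± 0.32, by 1.29 (SE 0.16, limma adjusted p = 0.00108), or 2.45-fold. Arms did not overlap for 3 of the 7 genes tested, HCST, TYROBP and SYK, against 5.52% of all genes with every siRE array above every siMM array.

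FCER1G, the common gamma chain of the receptors for IgE, IgG and IgA, had a different course. It read 5.63, 5.91, 5.34 and 5.0 in siMM, of which the 96 h array alone was above the cut-off. In siRE it read 5.50, 6.84, 8.81 and 10.02. At 48 h siRE was thus at background and no higher than siMM, and from 96 h on it was higher, by the largest margin of the members at 168 and 240 h. The difference over the 4 times was 2.32 (SE 0.62) and missed the threshold (limma adjusted p = 0.0518). It passed without the 48 h pair of arrays, at 3.14 (limma adjusted p = 0.00481), and under 3 other settings: with no filter (2.32, 0.0146), with the stricter filter (2.32, 0.0422) and with array weights (1.96, 0.0453). It stayed short of the threshold at 1.42 without the 240 h pair (0.105), 1.94 without 168 h (0.266), 2.79 without 96 h (0.106), 1.99 with values below the cut-off set to it (0.136), and with a robust prior that follows intensity (0.349). FCER1G passed the filter through its siRE arrays, since 1 siMM array was above the cut-off.

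**Figure D2:**
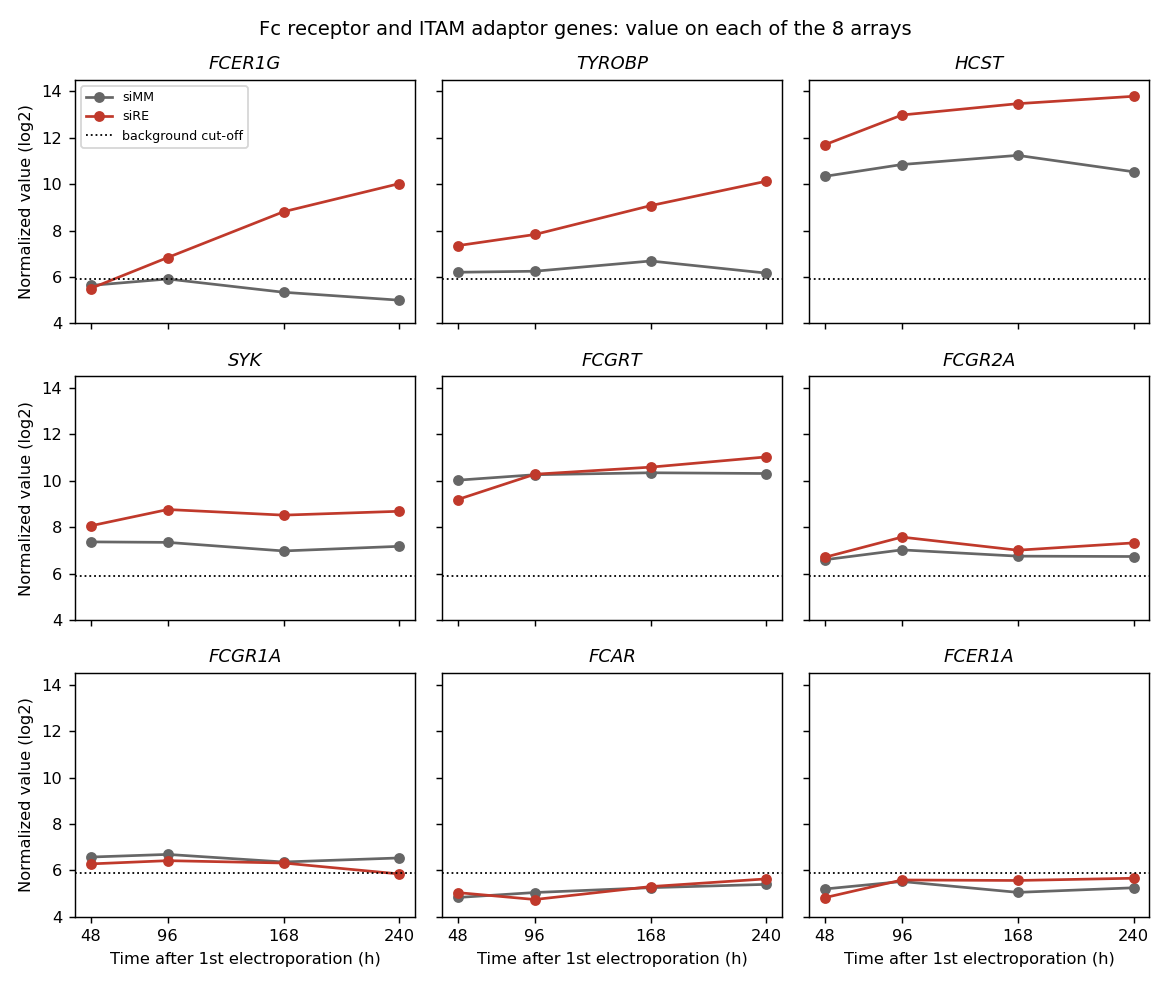
Normalized log2 value (y axis) against time after the first electroporation in hours (x axis) for 1 probe of each of the 9 genes, with a point for each array, grey for siMM and red for siRE, and the background cut-off dotted. The siRE arrays of TYROBP, HCST and SYK lie above all their siMM arrays, FCER1G leaves background in siRE after 48 h, and FCAR and FCER1A stay below the cut-off.

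None of the receptors passed over the 4 times. FCGRT, the neonatal Fc receptor, which protects IgG and albumin from degradation and signals through no ITAM, read 10.03, 10.26, 10.35 and 10.32 in siMM and 9.19, 10.29, 10.59 and 11.03 in siRE. It was lower in siRE at 48 h, level with siMM at 96 h and higher at 240 h, so that the mean difference was 0.04 (SE 0.21, limma adjusted p = 0.937). FCGR2A, an IgG receptor that carries an ITAM in its own tail, read 6.60 to 7.03 in siMM and 6.71 to 7.58 in siRE at its brightest probe. It stood 0.37 higher (SE 0.14, limma adjusted p = 0.143) with overlapping arms.

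A dimmer FCGR2A probe differed by 0.22 (SE 0.16, limma adjusted p = 0.464), and the third was above background on 1 array. FCGR1A, the high-affinity IgG receptor, which signals through FCER1G, read 6.36 to 6.69 in siMM and 5.85 to 6.42 in siRE. Its difference was -0.32 (SE 0.14, limma adjusted p = 0.210), lower at all 4 times without passing. FCGR1A and FCGR2A have near-identical copies in the genome, so which gene their probes read is uncertain. FCAR, the IgA receptor, read 4.74 to 5.63 over the 8 arrays, and FCER1A, the IgE-binding chain of mast cells and basophils, 4.82 to 5.66. Neither was above background on any array, and no fold is given. Of the mast cell and basophil markers, TPSAB1 and TPSB2 were above background and stood at -0.82 and -0.70 (limma adjusted p = 0.0764 and 0.0939).

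At single times, with 1 array against 1, differences have no replicate check and no test. At 48 h, 2 of the 7 genes stood 2-fold or more higher in siRE, HCST at 1.36 and TYROBP at 1.15, against 0.634% of all genes. At 96 h there were 3, HCST at 2.13, TYROBP at 1.58 and SYK at 1.42, against 1.27%. At 168 h FCER1G, whose siMM array was below background, joined them at a difference of at least 2.91, counted from the cut-off, with TYROBP at 2.39, HCST at 2.23 and SYK at 1.54, and the 4 genes compare with 2.24% of all genes. At 240 h FCER1G stood at least 4.12 higher, counted in the same way, TYROBP 3.96, HCST 3.25 and SYK 1.51, against 3.59%. FCER1G is in the counts of 168 and 240 h through the siRE arrays that carried it past the filter. None of the 7 stood 2-fold lower at any time, against 0.328%, 0.646%, 1.81% and 5.23% of all genes at the successive times, and the nearest was FCGRT at -0.83 at 48 h. At 48 h SYK had 45.7% of its 240 h log2 difference, HCST 41.8% and TYROBP 28.9%.

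**Figure D3:**
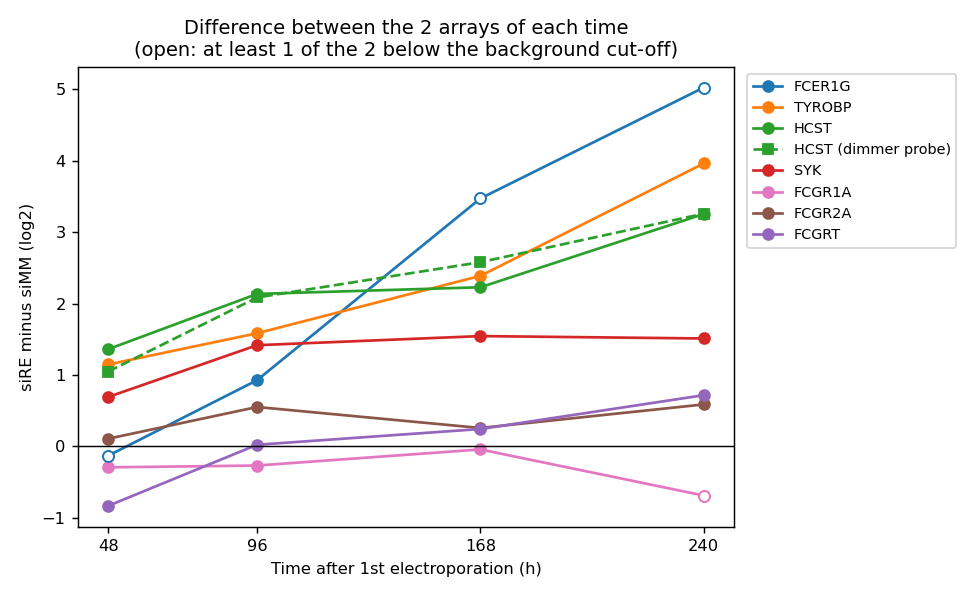
The siRE minus siMM difference (log2, y axis) between the 2 arrays of each time (hours, x axis) for the 7 tested genes, with the dimmer HCST probe dashed. Open points have at least 1 of their 2 arrays below the background cut-off, so that the points of FCER1G at 168 and 240 h rest on a siMM reading at background. FCER1G is at background in both arms at 48 h and furthest above 0 at 240 h, the HCST probes run together, and SYK stays near 1.5 from 96 h on.

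The second comparison asked whether the difference changed with day, over days 2, 4, 7 and 10. Of the 7 genes, 3 passed, FCER1G, TYROBP and HCST, all with a difference that grew, against 1.05% of all genes that passed in either direction and 0.566% that passed with growing differences. The FCER1G difference grew by 0.67 per day (SE 0.04, limma adjusted p = 2.24e-05), rank 1 from the steepest among the 14644 probes tested. FCER1G passed the filter through its siRE arrays, so its place in the count and its rank rest on the arm where it is high. Since 3 of its 4 siMM arrays and the 48 h siRE array were below background, the slope was also taken with such values set to the cut-off. It was then 0.53 per day (limma adjusted p = 0.00701), rank 2. The call held in all 11 alternative settings, with slopes between 0.53 and 0.73 per day.

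TYROBP's difference grew by 0.35 per day (SE 0.04, limma adjusted p = 0.00344), rank 17 of all probes. Its siRE level stood 2.78 higher at 240 h than at 48 h. Its siMM level moved by -0.04 between the same times, with 6.69 at 168 h in between. The slope missed the threshold on leaving out 240 h (0.25, limma adjusted p = 0.0909) and with values below the cut-off set to it (0.35, 0.0535). All 8 TYROBP arrays were above the cut-off, so the latter setting left TYROBP's values and slope unchanged and altered only other probes. HCST's difference grew by 0.21 per day (SE 0.04, limma adjusted p = 0.0443) at the brightest probe and by 0.26 (SE 0.04, limma adjusted p = 0.0179) at the dimmer one. The first of these calls ended under 6 of 11 settings, among them leaving out the 48, 96 or 240 h pair (limma adjusted p = 0.169, 0.0951 and 0.498), and the second without the 48 h pair and under 2 other settings.

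FCGRT's slope was 0.18 per day (SE 0.04) and missed the threshold (limma adjusted p = 0.0762), passing without the 168 h pair (0.0447), with the stricter filter (0.0474) and with the robust prior that follows intensity (0.00712). SYK's was 0.09 (SE 0.04, limma adjusted p = 0.333), so a growth of its difference with day was not shown. FCGR2A and FCGR1A had slopes of 0.04 and -0.04 per day (limma adjusted p = 0.676 and 0.699). Whether the slopes of 2 members differ from each other was not tested. The change of siMM with day was called for 0 of 14644 probes by limma (0.0% of genes), with 271 probes at an unadjusted p under 0.05. The siMM slopes of the 7 genes lay between -0.10 and 0.03 per day. The test fits a straight line in day, so it does not cover a rise and fall within siMM. HCST's siMM level went from 11.24 at 168 h to 10.53 at 240 h, while its siRE level went from 13.47 to 13.79.

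**Figure D4:**
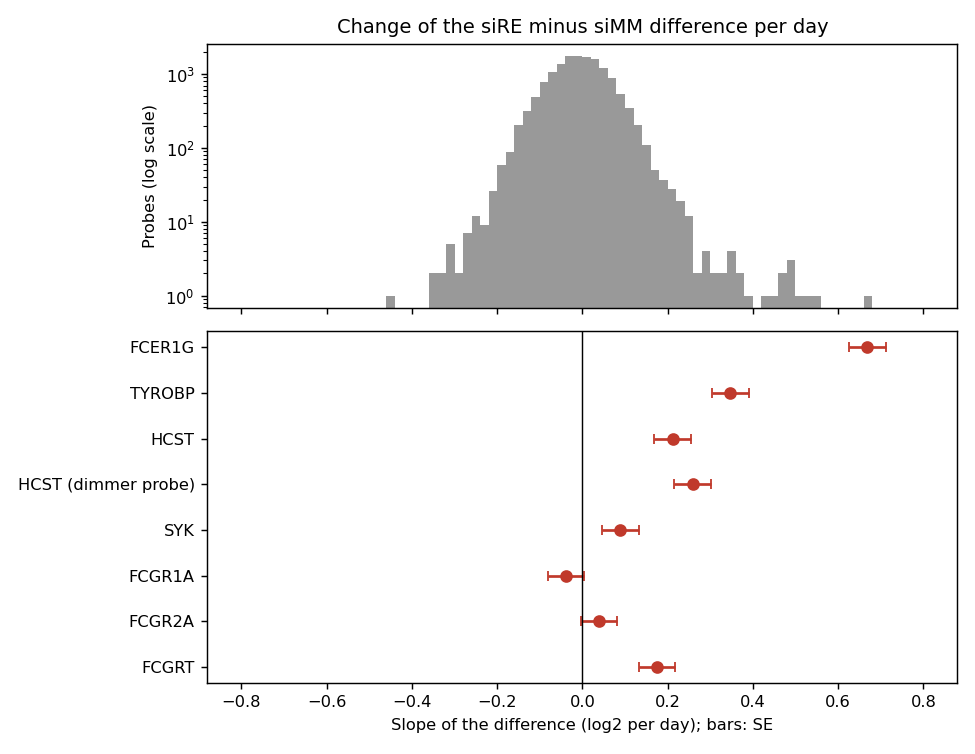
Slopes of the siRE minus siMM difference in log2 per day (x axis): above, the number of probes (log scale) among all 14644 tested, and below, the slopes of the 7 tested genes with their SE as bars. FCER1G at 0.67 (0.53 with values below the cut-off set to it) lies at the right end of the distribution, and FCGR1A and FCGR2A lie near 0.

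By Pearson's correlation over the 8 arrays, as a description of likeness in which siRNA and time both take part, FCER1G was most like LINC02035 (0.986), S100A8 (0.982), PDE6H (0.981), MYL12A (0.981) and CEACAM8 (0.981). S100A8 is a calcium-binding protein of neutrophils and CEACAM8 a granulocyte surface protein. TYROBP was most like S100A9 (0.990), the partner of S100A8, NKG7 (0.990), a granule membrane protein, VAMP1 (0.990), MYL12A (0.986) and NXF3 (0.986). HCST was most like SRGN (0.995), the proteoglycan core of secretory granules, RAB32 (0.994), LAPTM5 (0.993), a lysosomal membrane protein, SNX30 (0.990) and SLC39A11 (0.990). MYL12A, a myosin light chain, was shared by the lists of FCER1G and TYROBP. Among the members, FCER1G correlated at 0.954 with TYROBP and at 0.784 with SYK, and TYROBP at 0.959 with HCST. FCGR1A correlated negatively with each of the other 6 genes, from -0.874 with TYROBP to -0.377 with FCGR2A.

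Genes around the receptors and adaptors were followed by lists drawn from general knowledge, each gene by its brightest probe. Over the 4 times 7.1% of all genes passed in either direction, and 3328 of 14644 probes were at an unadjusted limma p under 0.05. Of 19 other Fc receptors and Fc receptor-like genes, 15 were in the annotation, 4 were above background and 0 passed in limma (1 at an unadjusted p under 0.05). TRIM21, a cytosolic antibody receptor, stood at 0.10 and FCGR2B, the inhibitory IgG receptor, at -0.01 (limma adjusted p = 0.732 and 0.980). FCGR3A, the IgG receptor of natural killer cells, was not above background. Of the 6 other ITAM chains of T and B cell receptors, 3 were above background and 0 passed (1 at an unadjusted p under 0.05), with CD79B at -0.47 (limma adjusted p = 0.0630) and CD247 at -0.41 (0.335), where a dimmer CD247 probe passed at -0.65 (0.0413). CD3D, CD3E and CD3G were not above background.

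Of 23 receptors that pair with these adaptors, 6 were above background, 1 was higher and 0 lower, with a median difference of 0.06. OSCAR, a collagen receptor that uses FCER1G, rose from 5.84 to 6.88, by 1.05 (SE 0.22, limma adjusted p = 0.0187); a dimmer probe gave 0.50 (0.185), and the call ended without the 96 or the 168 h pair (0.0512 and 0.109), without the time block (0.0945) and with values below the cut-off set to it (0.125). LILRA2, an FCER1G-coupled receptor, stood at 0.52 (limma adjusted p = 0.227), with a difference that grew by 0.21 per day (SE 0.04, limma adjusted p = 0.0471). That slope call held in 6 of 11 settings. It ended on leaving out 48 h or 96 h (limma adjusted p = 0.243 and 0.135). It also ended with no filter, without the time block and with values below the cut-off set to it. CLEC5A, which uses TYROBP, stood at -0.02 (limma adjusted p = 0.941). TREM1, SIRPB1 and KLRK1, which encodes NKG2D, the receptor served by HCST, were among the 17 genes not above background. In a separate list, the 3 receptors with a half-ITAM, CLEC7A, CLEC1B and CLEC9A, were not above background either.

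The Src family and other proximal kinases moved in both directions, with 1 of 7 above background higher and 2 lower. The higher one, FGR, passed the filter through its siRE arrays alone, so its count and its p rest on the arm where it is high. FGR, a Src family kinase of granulocytes and monocytes, stayed at background in siMM on all 4 arrays and averaged 6.88 in siRE, at least 1.97-fold higher (limma adjusted p = 0.00102, and 0.0785 with values below the cut-off set to it). Its second probe, also at background on all siMM arrays, was at least 1.36-fold higher (limma adjusted p = 0.00331). LYN, the main Src kinase of myeloid cells, fell by 0.62 (SE 0.14, limma adjusted p = 0.0259), and YES1 fell by 0.89 (SE 0.20, limma adjusted p = 0.0243). The LYN call ended without the 96, 168 or 240 h pair (limma adjusted p = 0.0633, 0.149 and 0.0716) and without the time block (0.152), and the YES1 call without the 96 or 168 h pair (0.106 and 0.0951) and the block (0.0970) and with values below the cut-off set to it (0.0800). BTK, a kinase downstream of SYK, and CSK, which inhibits Src kinases, stood at -0.14 and -0.12 (limma adjusted p = 0.540 and 0.683). Of 18 downstream genes, 2 were higher and 3 lower, with a median of 0.02. LAT2, an adaptor below ITAM receptors, was not above background in siMM and at least 1.08-fold higher in siRE (limma adjusted p = 0.00342, and 0.375 with values below the cut-off set to it). It too passed the filter through its siRE arrays alone. LAT2's second probe averaged 5.79 in siRE, under the cut-off, so that no rise above background is bounded by it (limma adjusted p = 0.0101). PIK3CB, a catalytic subunit of phosphoinositide 3-kinase, rose by 0.86 (SE 0.15, limma adjusted p = 0.00684). VAV3, a guanine nucleotide exchange factor, fell by 0.68 (SE 0.14), PLCG1, phospholipase C gamma, by 0.65 (SE 0.15) and RAC1, a regulator of the actin cytoskeleton, by 0.57 (SE 0.14), at limma adjusted p = 0.0181, 0.0286 and 0.0406. Dimmer probes of VAV3 and PLCG1 stood at -0.61 and -0.49 (limma adjusted p = 0.0207 and 0.0512). Without the 96 or the 168 h pair the calls of PIK3CB (limma adjusted p = 0.0521 and 0.0761), VAV3 (0.113 and 0.120), PLCG1 (0.127 and 0.194) and RAC1 (0.183 and 0.124) ended. Those of PLCG1 and RAC1 also ended without the 240 h pair (0.0714 and 0.0995) without the time block (0.102 and 0.0660) and with values below the cut-off set to it (0.0570 for both). RAC2, the haematopoietic form, stood at 0.47 and PIK3R1 at -0.09 (limma adjusted p = 0.0941 and 0.778).

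Genes that dampen ITAM signals also moved in both directions. Of 9 receptors with inhibitory motifs (ITIMs), 2 were higher and 2 lower. CLEC12A, a C-type lectin of granulocytes and monocytes, rose from 6.2 ± 0.11 to 8.56 ± 1.08 (SD, n = 4 arrays each), by 2.36 (SE 0.30, limma adjusted p = 0.00119), and its difference grew by 0.30 per day (SE 0.04, limma adjusted p = 0.0104). Its other 2 probes were at background on all siMM arrays and at least 4.49-fold and 3.50-fold higher in siRE. The difference call ended with a robust prior that follows intensity (limma adjusted p = 0.0695), and the slope call on leaving out 48 h (0.0908), without the time block (0.0605) and with values below the cut-off set to it (0.0648). No array of the brightest CLEC12A probe was below the cut-off. CD300LF rose by 0.70 (SE 0.17, limma adjusted p = 0.0372), while CD300A fell by 1.09 (SE 0.23, limma adjusted p = 0.0194) and PECAM1, the adhesion molecule CD31, by 0.65 (SE 0.14, limma adjusted p = 0.0181). CD300LF, above background on 1 siMM array, and CD300A lost their calls with values below the cut-off set to it (limma adjusted p = 0.106 and 0.0816). In that setting the CD300LF difference was 0.54. CD300LF passed the filter through its siRE arrays, so its count and its p rest on the arm where it is high. CD300LF also lost its call without the 96, 168 or 240 h pair (limma adjusted p = 0.133, 0.0907 and 0.0955) and without the time block (0.0572), CD300A without the 168 h pair (0.118) and the block (0.201), and PECAM1 without the 96 or 168 h pair (0.0995 and 0.152). LAIR1, a collagen receptor, read 14.10 in siMM and 14.01 in siRE at its brightest probe, near the highest value of the table, 14.36, and LILRB3 11.68 and 11.82 (limma adjusted p = 0.733 and 0.596). A dimmer LAIR1 probe stood at 0.51 (limma adjusted p = 0.172).

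Of 11 phosphatases and other negative regulators, 3 were higher and 1 lower. SLA, an adaptor that lowers receptor levels, rose by 1.80 (SE 0.19, limma adjusted p = 0.000431), PTPN22, a tyrosine phosphatase of lymphoid and myeloid cells, by 1.19 (SE 0.18, 0.00324) and PTPN6, the phosphatase SHP-1 that ITIMs recruit, by 0.78 (SE 0.16, 0.0144). The PTPN6 call ended without the 96 or 168 h pair (0.0632 and 0.0663). PTPN22 averaged 5.83 in siMM, under the cut-off, with 2 siMM arrays above it. Its dimmer probes were at background on all siMM arrays and at least 1.48-fold and 1.88-fold higher in siRE (limma adjusted p = 0.00774 and 0.000898). UBASH3B, a phosphatase that acts on SYK, fell by 1.25 (SE 0.16, limma adjusted p = 0.000977), and PTPN11, the phosphatase SHP-2, and CBL, a ubiquitin ligase, stood at -0.18 and 0.40 (limma adjusted p = 0.470 and 0.0911). Of 4 genes of IgG and antigen handling, CALR, the chaperone calreticulin, rose by 0.67 (SE 0.14, limma adjusted p = 0.0166; 0.110 without the 168 h pair). B2M, the light chain that pairs with FCGRT, stood at 0.30 and CD74 at -0.35 (limma adjusted p = 0.285 and 0.199).

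Of the 18 genes of these lists that passed, SLA, PTPN22 and UBASH3B did so in every alternative setting. Without the 96 h pair 10 calls ended and without the 168 h pair 12, and 8 ended with values below the cut-off set to it. Of those 8 genes, RAC1, PLCG1 and YES1 had no array below the cut-off. Their differences stayed at -0.57, -0.65 and -0.89 in that setting, which altered only other probes. Both settings that leave out a pair have fewer arrays and residual degrees of freedom. Why the calls ended was not tested.

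**Figure D5:**
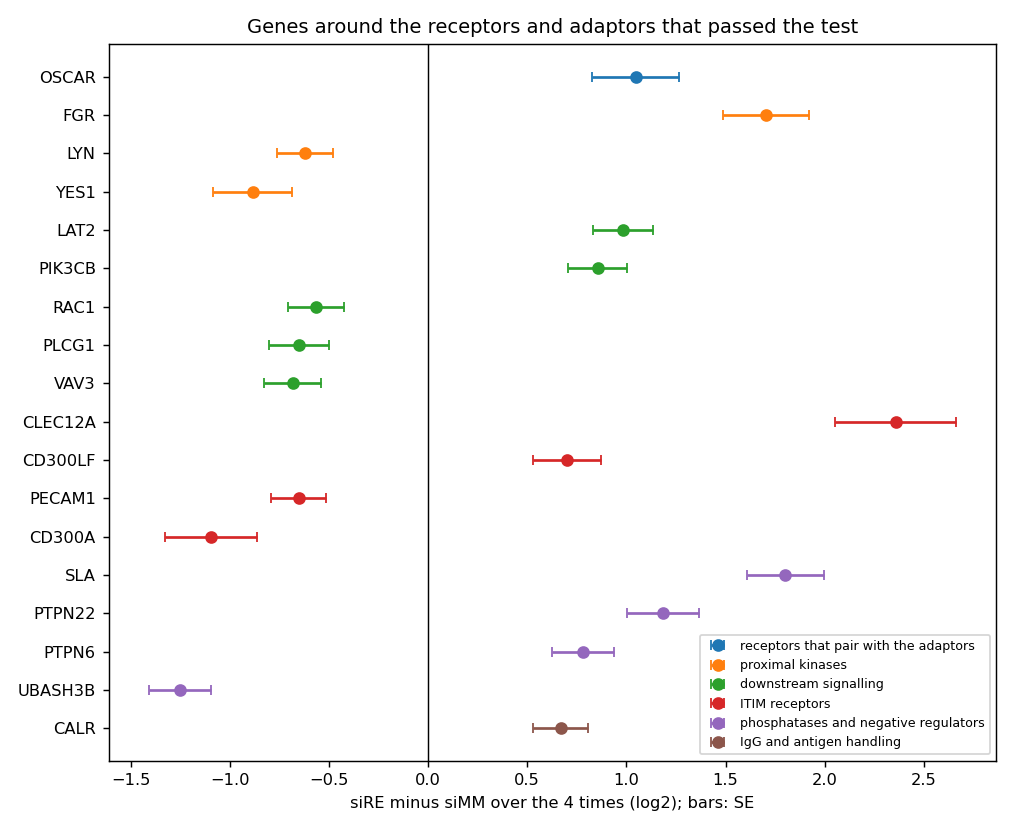
Differences between siRE and siMM over the 4 times in log2 (x axis) with SE bars for the 18 listed genes that passed the test, coloured by list. CLEC12A at 2.36 is furthest to the right and UBASH3B at -1.25 furthest to the left, and kinases, downstream genes, ITIM receptors and negative regulators each lie on both sides of 0. The points of FGR and LAT2 are fitted values, since both were at background in siMM. The siMM means of OSCAR, CD300LF and PTPN22 also lay under the cut-off.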

How the data were processed

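RNA of Kasumi-1 cells was read on 8 Illumina arrays as biotinylated cRNA (labels' protocols). The deposited values are the authors' processed table, read as log2 from their range of 3.89 to 14.36. The authors used lumi, per the submitters' processing notes, with no version. Whether background was subtracted and log2 was plain or variance-stabilised was not given in the sources used here. Sorted values were within 0.0235 between arrays. The values were tested without renormalizing, and a general shift of most transcripts would be hidden. A second table was left unused: its 16 columns (8 of signal) match no sample's label.

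The members and gene lists were chosen with earlier results of these data known, and no list was tested. The cut-off of 5.90 is the mode of all values, 5.22, plus the 90th percentile of how far lower values fall below it. Of all probes 30112 had 1 gene symbol, 8 several and 17110 none. The Entrez numbers of all 9 members matched the RefSeq table. Each gene was represented by its brightest tested probe. Named are all members, up to 6 genes per list that passed and the 2 brightest that did not, and the 5 genes most like each adaptor. In a bound, the brighter arm's mean is as measured, and arrays of the dimmer arm below the cut-off count as being at it.

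Tests used limma 3.58.1 in R 4.3.3, with 3 residual and 8.16 prior degrees of freedom over the 4 times, and 2 and 10.6 for the change with day, whose SE is therefore mostly the prior's. Summaries were made in Python 3.11.15 with pandas 2.3.3. Arrays are paired by the labelled time. Deviations from arm means correlated at 0.375, 0.292, 0.212 and 0.0724 between arrays of 48, 96, 168 and 240 h, the last below 0.1. Between arrays of different times they ran from -0.320 (siMM 48 h, siRE 96 h) to 0.198 (siMM 168 h, siRE 96 h). The value for siMM 240 h with siRE 48 h, 0.138, also exceeded that of the matched 240 h arrays. Titles carry a letter of unstated meaning per array, and no batch is named. In simulated data with 14644 probes, the fit over the 4 times found 99% of probes shifted by 1 (log2) and 100% of those shifted by 2. It made 214 calls, 15 of them false. Each shift was the same at all 4 times, and the noise was drawn from the fit itself. Recovery of differences that grow with time, as for FCER1G, was not simulated. Alternatives were a filter of 4 of 8 arrays or none, values below the cut-off set to it, no time block, each pair left out, a robust prior that follows intensity, array weights, cyclic loess and the mean of a gene's probes. Setting low values to the cut-off can also change the prior and the adjustment, and so the adjusted p of probes lying wholly above it.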

Additional observations from a re-analysis of the deposited data

Results flagged for a closer look

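The siRE minus siMM difference changed with day, by the limma interaction test, for 6 of the genes named above. It grew by 0.67 per day for FCER1G (limma adjusted p = 2.24e-05; 0.53 with values below the cut-off set to it), by 0.35 for TYROBP (0.00344), by 0.21 and 0.26 at the probes of HCST (0.0443 and 0.0179), by 0.30 for CLEC12A (0.0104) and by 0.21 for LILRA2 (0.0471), and for the marker CD34 its slope was -0.35 (0.00362). The LILRA2 call ended without the 48 or the 96 h pair (0.163 and 0.218 per day, limma adjusted p = 0.243 and 0.135), and that of CLEC12A without the 48 h pair (0.22, limma adjusted p = 0.0908).

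An array lay far from the other 3 of its siRNA in 4 of 90 groups of 4 arrays examined, where chance flags about 1 in 20. TYROBP read 6.69 in siMM at 168 h, against 6.17 to 6.25 on the other siMM arrays. BTK read 9.94 in siMM at 96 h, against 9.50 to 9.56. PECAM1 read 8.11 in siRE at 96 h, against 7.93 to 7.95. PTPN6 read 9.34 in siRE at 240 h, against 8.51 to 8.55. Its call held without the 240 h pair (difference 0.60, limma adjusted p = 0.0310) and ended without the 96 or the 168 h pair.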

How the results depend on the processing

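HCST and SYK passed over the 4 times in all 12 alternative settings and TYROBP in 11 of 12. The number of members that passed lay between 2 and 4, and 3 to 4 when a pair was left out. The members with a slope past the threshold were 3 in the main test, 1 with values below the cut-off set to it, and 1 to 4 when a pair was left out. Over all probes, 889 passed over the 4 times (479 higher), 464 (278 higher) with values below the cut-off set to it, 530 (315 higher) with no time block, and 251 to 1175 (162 to 579 higher) when a pair was left out. Slopes passed for 139 probes, for 219 with the stricter filter, 10 with values below the cut-off set to it, 18 with no time block, 387 with a robust prior that follows intensity, and 38 to 402 when a pair was left out. At 240 h, 725 probes stood 2-fold or more lower in siRE, and 408 with values below the cut-off set to it, an alternative for single times chosen after seeing the data. The cause of these shifts was not tested, other than that leaving out a pair leaves fewer arrays. The time block pairs the arrays; without it the calls of HCST, TYROBP and SYK stayed (limma adjusted p = 0.00351, 0.0117 and 0.00128), and the HCST slopes missed the threshold (0.380 and 0.183). Signal near background limits FCER1G in siMM, FCAR, FCER1A and the dimmer FCGR2A probes.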
